A study of Homo sapiens with 2 samples.

Results

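The 10 receptor genes described here across both libraries of the series are EGFR, ERBB2, ERBB3, MET, FGFR1, FGFR2, FGFR4, AXL, IGF1R and PDGFRA, each a receptor tyrosine kinase studied in gastric cancer. The rule is a list of names and uses no measured value, though the list was drawn up with earlier results of these data known, and all 10 were found among the 28303 genes that carry a value. Of these 10, 8 passed a filter on low values, a mean FPKM over both libraries of at least 1, as did 11945 genes in all, and each of the 8 exceeded an FPKM of 1 in both libraries. FPKM is the number of fragments of a gene divided by its exon length and by the library's total of counted fragments. EGFR and FGFR1 lay under the filter and enter no median of the set and no count of its log2 ratios. They do enter the order of levels, the summed FPKM and the search of 3′ UTRs, and EGFR enters the count of promoter windows.

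The series holds 1 library of HGC27 cells given the plasmid pcDNA3.1-control and 1 library of HGC27 cells given pcDNA3.1-linc01133, from which the long non-coding RNA LINC01133 is made (the LINC01133 library). HGC27 is an established human gastric cancer line, and both cultures were at passage 4-6, were transfected with Turbofect and were harvested 48 h afterwards. Both groups therefore share the vector and the reagent, and the comparison asks which genes differ when LINC01133 is supplied from a plasmid in a single line. With 1 library per group no difference has a replicate check, no p-value is given, and each interval below is an exact 95% interval that covers counting error only.

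Receptor tyrosine kinases are single-pass membrane proteins that bind a growth factor outside the cell, pair up and phosphorylate tyrosines on each other inside it. Adaptor proteins dock on those tyrosines and pass the signal to the RAS-ERK and PI3K-AKT cascades, while ubiquitin ligases and phosphatases end it. In gastric cancer ERBB2, MET, EGFR and FGFR2 are recurrently amplified, and ERBB2 is the target of an established therapy. FGFR4, AXL, IGF1R and PDGFRA have been studied as further routes to the same cascades.

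The members share a kinase domain, and its activation segment shows how close relatives can encode a similar stretch of protein with different base composition. The segment opens with the Asp-Phe-Gly motif, which binds magnesium, and swings out when the kinase is switched on. The coding DNA of the segment was taken from GENCODE 29 transcripts on GRCh38 for 6 members that lie at different places in the results, with the Asp-Phe-Gly codons and the closing Glu codon in capitals. MET is shown from exon 19 on the plus strand (chr7:116783335-116783430), PDGFRA from exons 18 and 19 on the plus strand (chr4:54285907-54287462), EGFR from exons 21 and 22 on the plus strand (chr7:55191812-55192792), FGFR2 from exons 13 and 14 on the minus strand (chr10:121487392-121488047), ERBB2 from exons 25 and 26 on the plus strand (chr17:39725142-39725353) and FGFR4 from exons 14 and 15 on the plus strand (chr5:177096123-177096319), with the intron left out where there is one.
MET: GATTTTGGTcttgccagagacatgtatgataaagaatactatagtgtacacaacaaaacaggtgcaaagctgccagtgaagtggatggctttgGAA
PDGFRA: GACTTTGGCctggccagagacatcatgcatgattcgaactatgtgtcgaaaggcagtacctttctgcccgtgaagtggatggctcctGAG
EGFR: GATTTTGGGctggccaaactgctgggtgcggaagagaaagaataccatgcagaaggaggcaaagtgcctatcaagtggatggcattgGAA
FGFR2: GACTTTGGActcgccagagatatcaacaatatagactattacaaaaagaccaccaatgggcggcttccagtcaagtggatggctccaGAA
ERBB2: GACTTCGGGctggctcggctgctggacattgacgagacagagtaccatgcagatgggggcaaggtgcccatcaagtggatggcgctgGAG
FGFR4: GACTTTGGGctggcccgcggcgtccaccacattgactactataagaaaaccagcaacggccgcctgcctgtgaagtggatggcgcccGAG
FGFR2 and FGFR4 encode 25 identical residues of 30 in this segment, but 25 of the 90 bases differ, 19 of them at the third codon position. EGFR and ERBB2 encode 24 identical residues of 30 and differ at 21 of 90 bases, 14 of them at the third position. The share of G or C at the third position was 40.6% in the MET segment, 50% in EGFR, 53.3% in FGFR2 and 66.7% in PDGFRA. It was 80% in ERBB2 and 83.3% in FGFR4, so in both pairs of relatives the codons of one gene were richer in G or C than those of the other. The segment does not stand for the whole transcript: that of PDGFRA was above those of EGFR and FGFR2 in this share, while the PDGFRA transcript had 42.9% GC, below the 47.5% of EGFR and the 48.8% of FGFR2.

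Depth was alike, at 15666629 fragments for the control library and 16302581 for the LINC01133 library. LINC01133 itself had an FPKM of 0.0809 and 1.44 in that order, from 4 and 74 fragments, a ratio of 17.8 (6.66 to 67.0). Markers of cell identity in these libraries were mostly mesenchymal. Of 19 epithelial markers 16 had a value, 2 passed the filter, and the summed FPKM of the list was 6.99 in the control library and 5.62 in the LINC01133 library, most of it from CDX2 (3.22 and 2.53) and MUC1 (1.41 and 1.13). CDH1, which encodes E-cadherin, had 2 fragments and 1, and KRT18, MUC5AC and TFF2 were at 0 in both. Of 18 mesenchymal markers 16 passed, with a summed FPKM of 982 and 1053, led by COL3A1 (FPKM 325 and 322) and VIM (198 and 210). CDH2 had 4 and 6 fragments and COL6A3 had 2 and 3. Of the 16, 9 had a log2 ratio above 0, beside 55.4% of all genes past the filter. The lowest were SNAI1 (30.5 and 19.8, log2 ratio -0.60), THY1 (15.8 and 10.1, -0.60) and ACTA2 (1.87 and 0.969, -0.54). Past 2-fold higher were POSTN (33.7 and 98.8) and ZEB1 (3.06 and 7.82), as were 11.9% of all genes past the filter. The list's median log2 ratio was 0.06. After subtraction of the trends described below, POSTN went from 1.52 to 0.66, ZEB1 from 1.12 to 0.16 and the median to -0.04, and under each of the 3 other scalings the list held 1 gene past 2-fold higher. Of the blood and endothelial markers, ENG had an FPKM of 21.2 and 17.3, CDH5 was at 0 in both libraries and PTPRC had 4 and 9 fragments. In bulk RNA, fewer cells that express a receptor and less RNA per cell cannot be told apart.

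FGFR4 dominated the receptor levels in both libraries. In the control library the order was FGFR4 (FPKM 57.2), ERBB2 (14.99), AXL (6.35), FGFR2 (5.69), IGF1R (4.03), MET (2.94), PDGFRA (2.65), ERBB3 (1.19), EGFR (0.429) and FGFR1 (0.0603). The counting intervals overlapped between AXL and FGFR2 and between MET and PDGFRA, and between no other neighbours in that order. In the LINC01133 library the order was FGFR4 (35.7), ERBB2 (11.4), AXL (6.31), FGFR2 (6.28), PDGFRA (5.45), MET (5.28), IGF1R (4.02), ERBB3 (1.40), EGFR (0.598) and FGFR1 (0.0435). There the intervals of AXL and FGFR2 overlapped, as did those of PDGFRA and MET. MET and PDGFRA thus stood below IGF1R in the control library and above it in the LINC01133 library. These orders rest on merged exon length; by the length of the longest coding transcript AXL and FGFR2 trade places, as do MET and PDGFRA, in the control library, and FGFR2, PDGFRA and AXL take places 3, 4 and 5 in the LINC01133 library.

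**Figure D1:**
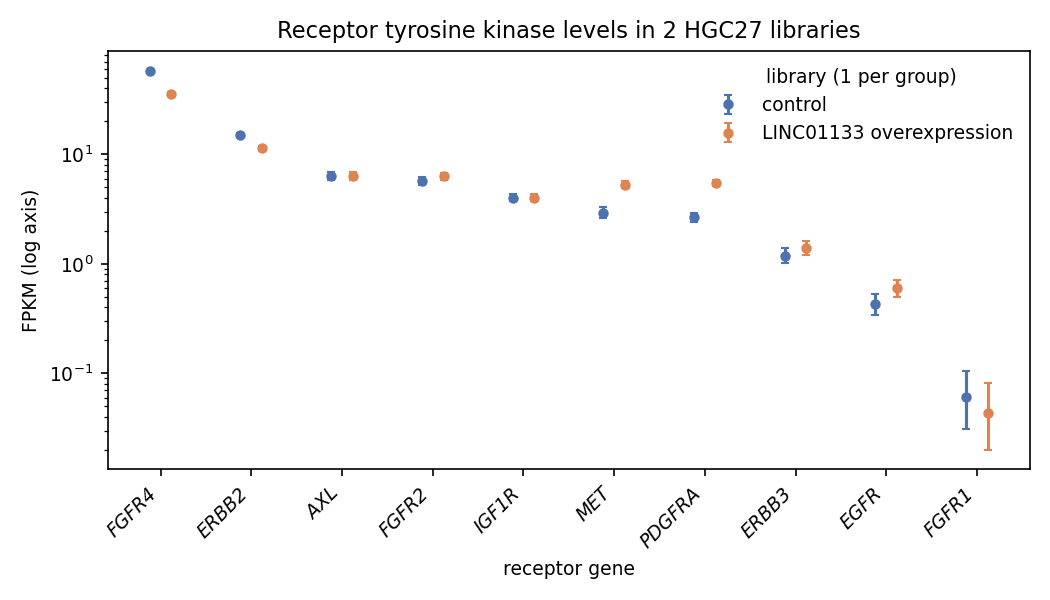
FPKM of the 10 receptor genes on a log axis in the control library and the LINC01133 library, 1 library each; bars are exact 95% Poisson intervals and cover counting error only. FGFR4 is highest in both libraries (57.2 and 35.7), MET and PDGFRA stand higher in the LINC01133 library, and FGFR1 is lowest (0.0603 and 0.0435).

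The summed FPKM of the 10 genes was 95.6 in the control library and 76.5 in the LINC01133 library. FGFR4 made up 59.9% of that sum in the control library and 46.7% in the LINC01133 library, while ERBB2 held 15.7% and 14.95%. Without FGFR4 the sum was 38.3 and 40.8, a difference smaller than the shift made by each of the 3 other scalings described below, so its direction depends on the scaling. FGFR4 exceeded ERBB2 3.82-fold in the control library and 3.12-fold in the LINC01133 library.

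FGFR4 (ENSG00000160867) is the fibroblast growth factor receptor that, with the coreceptor KLB, responds to FGF19. It lies on chromosome 5 (177086886 to 177098144, plus strand) on GRCh38. Its FPKM was 57.2 in the control library (55.5 to 59.0, 4330 fragments) and 35.7 in the LINC01133 library (34.4 to 37.0, 2810 fragments), and the intervals did not overlap. The level was 1.60-fold lower in the LINC01133 library (1.53 to 1.68), the log2 ratio of FPKM + 1 was -0.67, and its rank among all listed genes was 725 in the control library and 1133 in the LINC01133 library. Among the members it showed the lowest ratio past the filter and also the highest GC content, 63.6% over the transcript.

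FGFR2 (ENSG00000066468), whose amplification marks a subset of diffuse gastric cancers, lies on chromosome 10 (121478334 to 121598458, minus strand). Its FPKM was 5.69 in the control library (5.26 to 6.14) and 6.28 in the LINC01133 library (5.84 to 6.74), from 667 and 766 fragments. The ratio of 1.104 had an interval of 0.994 to 1.23, so the libraries did not differ beyond counting error. The FGFR2 transcript is less GC-rich than that of FGFR4, with 48.8% over the transcript and 37.0% in the 3′ UTR. FGFR1 (ENSG00000077782), the receptor amplified in some lung and breast cancers, lies on chromosome 8 (38400215 to 38468834, minus strand). Its fragments numbered 12 and 9 in the control and LINC01133 libraries, an FPKM of 0.0603 (0.0312 to 0.105) and 0.0435 (0.0199 to 0.0825). A difference was not detectable at this depth, the ratio of 0.721 having an interval of 0.268 to 1.86, and the exon length behind its fragments differed by -8.26% from GENCODE 29. LETM2, which shares exon bases with FGFR1 in the annotation, had an FPKM of 0.668 and 1.32.

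Of the ERBB family, ERBB2 was the member with an appreciable level. ERBB2 (ENSG00000141736) encodes HER2, which has no known ligand of its own and acts as the preferred partner of the other ERBB receptors; it lies on chromosome 17 (39687914 to 39730426, plus strand). Its FPKM was 14.99 in the control library (14.4 to 15.6) and 11.4 in the LINC01133 library (10.9 to 11.96), from 2424 and 1925 fragments. The intervals did not overlap, and the level was 1.31-fold lower in the LINC01133 library (1.23 to 1.39), a log2 ratio of -0.36. Of its exon bases, 7.41% are shared with other genes, which include MIEN1 (FPKM 4.18 and 3.35) and PGAP3 (2.38 and 2.01) on the opposite strand, and whether counting used strand is not stated in the sources used here.

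ERBB3 and EGFR were scarce. ERBB3 (ENSG00000065361), a neuregulin receptor with an almost inactive kinase that recruits PI3K, lies on chromosome 12 (56076799 to 56103505, plus strand). It had an FPKM of 1.19 (1.01 to 1.39) in the control library and 1.40 (1.21 to 1.60) in the LINC01133 library, from 161 and 197 fragments, and its ratio of 1.18 had an interval of 0.95 to 1.46. EGFR (ENSG00000146648), the receptor of EGF and TGFA, lies on chromosome 7 (55019021 to 55211628, plus strand). It had an FPKM of 0.429 (0.342 to 0.531) and 0.598 (0.497 to 0.714), from 84 and 122 fragments. The EGFR ratio of 1.40 had an interval of 1.05 to 1.87, just above 1, but both levels were under the filter and the levels' own intervals overlapped.

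MET (ENSG00000105976), the receptor of hepatocyte growth factor HGF, was higher in the LINC01133 library. It lies on chromosome 7 (116672390 to 116798386, plus strand). Its FPKM was 2.94 in the control library (2.63 to 3.28, 324 fragments) and 5.28 in the LINC01133 library (4.87 to 5.72, 606 fragments), with no overlap of the intervals. This is a ratio of 1.80 (1.57 to 2.06) and, for FPKM + 1, a log2 ratio of 0.67. MET had the lowest transcript GC content of the 10 genes, 42.4%.

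PDGFRA (ENSG00000134853), a platelet-derived growth factor receptor typical of mesenchymal cells, had the largest ratio. It lies on chromosome 4 (54229097 to 54298247, plus strand). Its FPKM was 2.65 in the control library (2.40 to 2.92, 404 fragments) and 5.45 in the LINC01133 library (5.09 to 5.82, 864 fragments), with no overlap of the intervals. The ratio of FPKM was 2.06 (1.82 to 2.32), while the log2 ratio of FPKM + 1 was 0.82 and thus under the threshold of 1, since adding 1 shrinks the ratios of low genes. On the same strand 15.8% of its exon bases are shared with AC058822.1, a gene without a value here, and how such fragments were assigned is not stated in the sources used here.

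As deposited, AXL and IGF1R differed between the libraries by less than counting error. AXL (ENSG00000167601), the receptor of GAS6 and a marker of mesenchymal-like tumour cells, lies on chromosome 19 (41219203 to 41261766, plus strand). It had an FPKM of 6.35 (5.82 to 6.93) in the control library and 6.31 (5.78 to 6.87) in the LINC01133 library, from 513 and 530 fragments, a ratio of 0.993 (0.878 to 1.12). IGF1R (ENSG00000140443), the receptor of IGF1 and IGF2, lies on chromosome 15 (98648539 to 98964530, plus strand). It had 4.03 (3.76 to 4.31) and 4.02 (3.76 to 4.30), from 852 and 886 fragments, a ratio of 0.999 (0.909 to 1.099).

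As a set, the receptors past the filter were split evenly. Of the 8 genes, 4 had a log2 ratio above 0 and 4 below, with AXL and IGF1R almost at 0. Of all genes past the filter 55.4% were above 0. The receptors' median of 0.06 stood beside a median of 0.10 over all those genes. None of the 8 receptors reached an absolute log2 ratio of 1, which 11.9% of all genes past the filter did in the higher direction and 0.444% in the lower. By counting error alone, 2 of the 8 were higher (MET and PDGFRA) and 2 lower (FGFR4 and ERBB2), while 42.6% of the 10942 genes with whole fragments were higher by that rule and 32.2% lower. The members' shares were therefore no larger than those of genes at large. At a threshold of 1.5-fold in FPKM + 1, MET and PDGFRA counted as higher and FGFR4 as lower, beside 26.8% of all genes higher and 5.29% lower.

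The ratios of the receptors lined up with the base composition of their transcripts, as did those of all genes. Over the 8 receptors log2 ratio and transcript GC content had a Spearman correlation of -0.905 and Pearson's was -0.980; with the GC content of the coding sequence alone it was -0.952 and with that of the 3′ UTR -0.833 (Spearman). These are descriptions across genes of the same pair of libraries, which are not independent replicates, and over 11913 genes past the filter the Spearman correlation was -0.801. The tenth of all genes that holds MET and PDGFRA, with 41.3% to 43.6% GC, had a median log2 ratio of 0.63, close to the 0.67 of MET and below the 0.82 of PDGFRA. The tenth that holds ERBB2, with 58.7% to 62.3% GC, had a median of -0.37 beside the -0.36 of ERBB2, and the tenth that holds FGFR4, with 62.3% to 83.6% GC, had -0.39 beside the -0.67 of FGFR4. FGFR4 lay under the lower quartile of genes in its GC range, -0.55, and the part of base composition in the receptor ratios was not tested.

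**Figure D2:**
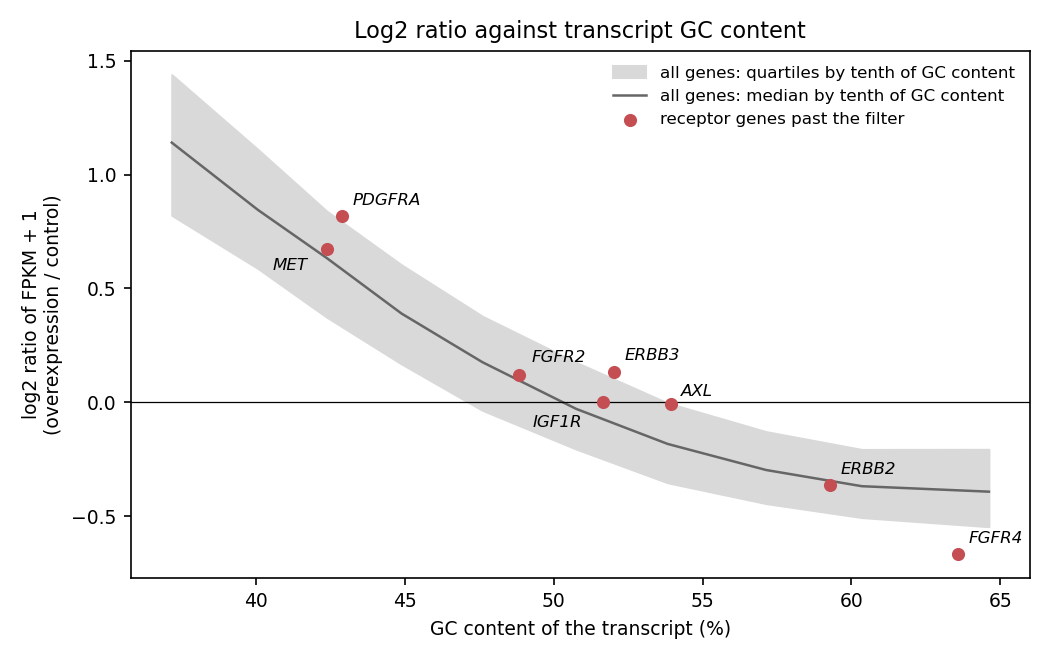
Log2 ratio of FPKM + 1 (overexpression over control) against transcript GC content in percent for the 8 receptor genes past the filter, with the median (line) and quartiles (band) of all genes in 10 equal groups by GC content. MET (0.67), ERBB2 (-0.36) and FGFR2 (0.12) lie near the line, and FGFR4 (-0.67) lies below the band.

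Subtracting lowess trends on GC content and length, fitted over all genes past the filter, brought the receptors together. Their range of log2 ratios went from 1.49 to 0.46, with FGFR4 lowest at -0.19 and PDGFRA highest at 0.27. MET went from 0.67 to 0.08, ERBB2 from -0.36 to 0.02 and PDGFRA from 0.82 to 0.27. ERBB3 went from 0.13 to 0.25, AXL from -0.01 to 0.22, IGF1R from -0.00 to 0.09 and FGFR2 from 0.12 to 0.09. After subtraction 7 of the 8 were above 0, with a median of 0.09 beside 0.08 for all genes, and none reached an absolute log2 ratio of 1, as 1.64% of all genes did in the higher direction and 0.789% in the lower. The median of all genes (0.081) lay above 0, and ERBB2 (0.021), MET (0.077) and FGFR4 stood below it. FGFR4 was the receptor below 0 in this setting. With trends fitted on genes whose mean FPKM reached 5, 3 of the 8 were above 0, and ERBB2 (-0.12), MET (-0.20), FGFR2 (-0.07) and IGF1R (-0.13) were below it beside FGFR4 (-0.32). The median of all genes past the filter was -0.10 in that setting, against 0.08 in the first.

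**Figure D3:**
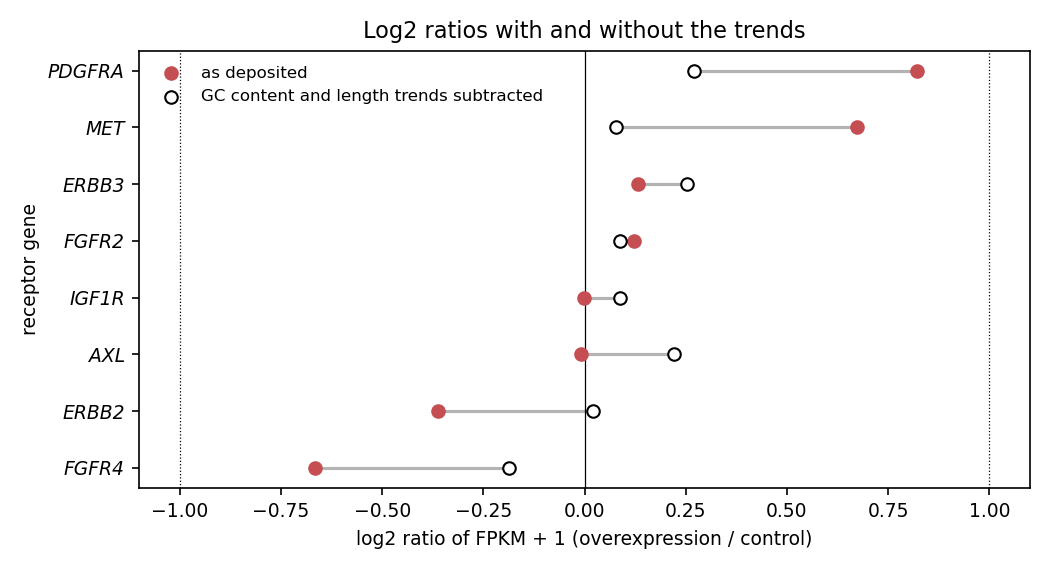
Log2 ratios of FPKM + 1 for the 8 receptor genes past the filter, as deposited (filled) and after subtracting the trends on GC content and length (open); dotted lines mark a log2 ratio of 1 in either direction. The spread from -0.67 to 0.82 narrows to -0.19 to 0.27.

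Scaling also moved the split. The deposited values are scaled to the counted fragments of each library, and upper quartile scaling lowers every log2 ratio of FPKM by 0.42, median of ratios scaling and the trimmed mean of M values by 0.21 each. Under upper quartile scaling 653 genes (5.47%) reached 2-fold in the higher direction and 507 (4.24%) in the lower, so 56.3% of the counted genes were higher, against 96.4% as deposited. FGFR4 then had a log2 ratio of -1.08, FGFR2 and ERBB3 turned below 0, and MET and PDGFRA stayed above 0. The median of all genes past the filter was then -0.23. Over all scalings, pseudocounts and trend settings, FGFR4 ranged from -1.08 to -0.12 and PDGFRA from 0.01 to 1.01, each without a turn of sign. With a pseudocount of 0.1 PDGFRA reached a log2 ratio of 1.01, past the threshold, as 18.8% of all genes were in the higher direction and 1.06% in the lower.

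The stretch upstream of a transcription start is shown for MET and FGFR4, the receptors with the lowest and the highest transcript GC content. Each is the 200 bases before a RefSeq start on GRCh38.p14, plus strand, with each GC box (GGGCGG, a binding motif of SP1, searched on both strands together with its reverse complement CCGCCC) in capitals. MET covers chr7:116671996-116672195 and FGFR4 chr5:177086715-177086914.
MET: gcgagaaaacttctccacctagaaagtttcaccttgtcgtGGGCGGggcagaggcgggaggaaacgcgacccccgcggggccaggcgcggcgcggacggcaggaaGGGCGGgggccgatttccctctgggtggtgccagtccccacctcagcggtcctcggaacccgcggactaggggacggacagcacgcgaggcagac
FGFR4: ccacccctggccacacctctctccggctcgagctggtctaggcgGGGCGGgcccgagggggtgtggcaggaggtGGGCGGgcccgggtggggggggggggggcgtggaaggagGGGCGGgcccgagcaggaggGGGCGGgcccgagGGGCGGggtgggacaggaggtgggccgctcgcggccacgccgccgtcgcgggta
Both stretches are GC-rich, 69.5% in MET and 81.0% in FGFR4, so the low GC content of the MET transcript is not found at its promoter. A further RefSeq start of FGFR4, not shown, had 54.5% GC in the 200 bases before it and no GC box there. RefSeq windows (250 bases before to 50 after a start) were matched for 8 of the 10 receptors, 16 windows in all; ERBB3 and FGFR1 were not matched. The windows held a GC box in 8 of 16 cases and a TATA box (TATAAA, both strands) in 1, beside 44.95% and 11.5% of 35116 windows of the same length. These counts are of windows, not genes, since some receptors had several windows, FGFR2 the most. ERBB2 was the matched receptor without a GC box in any window. A match is a run of letters only and does not show that a factor binds.

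Of the ligands, PDGFC and PDGFA had the highest mean FPKM. Of 25 genes 21 had a value and 7 passed the filter, with a median log2 ratio of -0.10 (0.10 after trend subtraction). Of the 7, 1 was at least 2-fold higher and none lower, beside 11.9% and 0.444% of all genes past the filter. Under each of the 3 other scalings the count of ligands at least 2-fold higher was 0. PDGFC, a ligand of PDGFRA, had an FPKM of 5.50 in the control library and 9.28 in the LINC01133 library, a ratio of 1.69 (1.51 to 1.89) with a transcript of 40.5% GC. Its log2 ratio of 0.66 was -0.08 after trend subtraction. PDGFA, another ligand of that receptor, had 8.04 and 6.58, a ratio of 0.818 (0.719 to 0.930), and PDGFB had 3.33 and 3.001.

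GAS6, the ligand of AXL, was lower in the LINC01133 library. It had an FPKM of 5.55 in the control library and 3.95 in the LINC01133 library, a ratio of 0.712 (0.623 to 0.814), and its log2 ratio of -0.40 became 0.10 after trend subtraction. PROS1, a relative of GAS6 best known as a ligand of the AXL relatives TYRO3 and MERTK, had 2.09 and 5.43, a log2 ratio of 1.06 that became 0.33 after trend subtraction. GAS6 has a transcript of 63.7% GC and PROS1 one of 40.5%. IGF2, a ligand of IGF1R, had 4.39 and 4.79, a ratio of 1.09 (0.958 to 1.25), and HBEGF, a ligand of EGFR, had 2.47 and 2.24.

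HGF and FGF19, ligands of MET and FGFR4, were scarce in these cells. HGF had 29 and 45 fragments, an FPKM of 0.208 and 0.310. FGF19 had 20 fragments in each library (FPKM 0.522 and 0.501), and KLB had none in the control library and 2 in the LINC01133 library, at or under the 3 fragments that a count of 0 allows. EGF had 1 and 2 fragments and IGF1 had 1 and 2, while TGFA had 33 and 45. Growth factors in the serum of the medium are not measured by RNA of the cells.

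**Figure D4:**
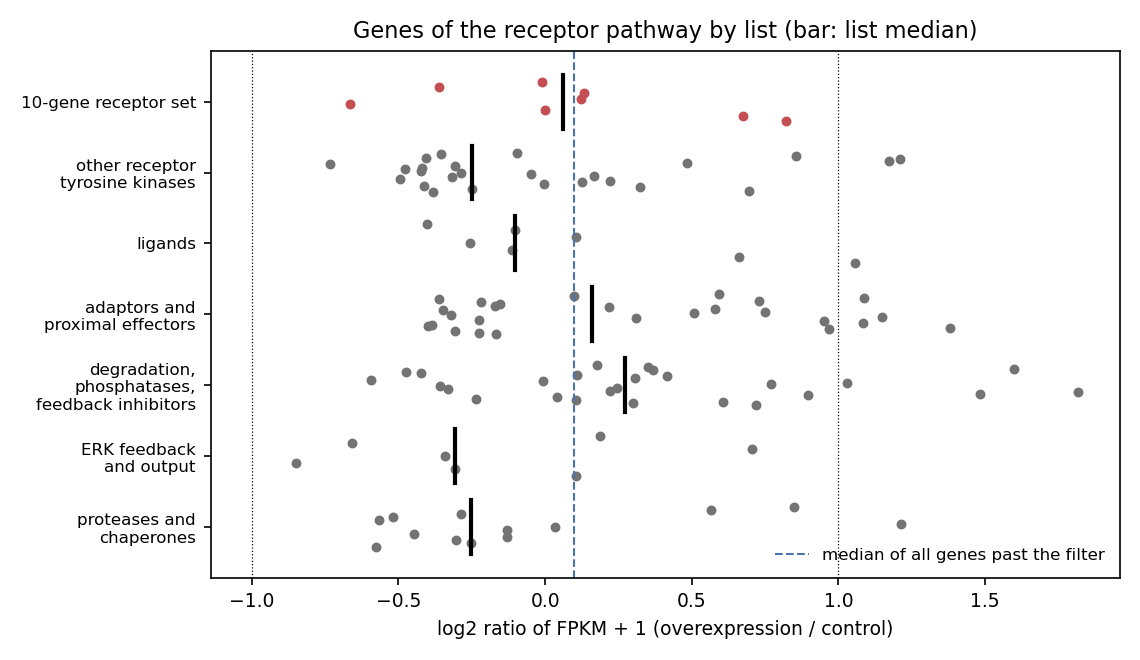
Log2 ratio of FPKM + 1 of each gene past the filter, by list, with the list median as a bar, the median of all genes past the filter (0.10) as a dashed line and dotted lines at -1 and 1. The 8 receptors (top) spread from -0.67 to 0.82, and no gene of a list lies below -1.

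Most of the other receptor tyrosine kinases lay below 0. Of 48 genes 46 had a value and 25 passed the filter. Of these 9 were above 0, beside 55.4% of all genes past the filter, and the median was -0.25 (0.08 after trend subtraction). Of the 25, 2 were at least 2-fold higher and none lower, beside 11.9% and 0.444% of all genes past the filter. Under upper quartile scaling 0 were higher and 1 lower, beside 5.47% and 4.24% of all genes. With a pseudocount of 0.1, 2 were higher and 1 lower, beside 18.8% and 1.06%. EPHA8 (FPKM 3.22 and 1.53) had the lowest log2 ratio, -0.73, and was at -0.30 after trend subtraction. The median GC content of the 25 was 57.6%. FGFR3 and PTK7, the most abundant of them, had an FPKM of 54.2 and 43.7 in the control library and 44.2 and 32.6 in the LINC01133 library. By merged exon length FGFR3 was thus just below FGFR4 (57.2) in the control library and above it (35.7) in the LINC01133 library. By the length of the longest coding transcript (4438 bases for FGFR3, 3122 for FGFR4), FGFR3 stands below FGFR4 in both libraries. The fragments of FGFR3 rest on an exon length set by the ratio of the libraries. The ratio of FGFR3 was 0.816 (0.780 to 0.854), a log2 ratio of -0.29 beside the -0.67 of FGFR4. After trend subtraction the log2 ratios of FGFR3 and FGFR4 were 0.15 and -0.19. The ephrin receptors EPHA3 (1.87 and 5.63, log2 ratio 1.21) and EPHA5 (1.29 and 4.17, 1.17) were the pair past 2-fold, with transcripts of 40.6% and 38.8% GC, and they were at 0.45 and 0.23 after trend subtraction.

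Adaptors and proximal effectors, which carry the signal from receptor to cascade, had 26 of 32 genes past the filter. Of these 4 were at least 2-fold higher and none lower, beside 11.9% and 0.444% of all genes past the filter. Under each of the 3 other scalings 1 was at least 2-fold higher. As deposited, 14 of the 26 were above 0, beside 55.4% of all genes past the filter, and the median was 0.16 (0.03 after trend subtraction). SOS1, the exchange factor that activates RAS, had an FPKM of 2.80 and 8.89, and PIK3R1, a regulatory subunit of PI3K, had 2.21 and 6.12. FRS2, the docking protein of the FGF receptors, had 0.758 and 2.74, and the RAS inhibitor RASA1 had 2.17 and 5.72. After trend subtraction their log2 ratios of 1.38, 1.15, 1.09 and 1.08 became 0.35, 0.36, -0.02 and 0.12. The most abundant, GRB2 (34.4 and 30.5) and CRKL (28.96 and 31.0), which bridge receptors to exchange factors, lay near 1 in ratio.

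Genes that degrade, dephosphorylate or restrain receptors had 26 of 31 past the filter, with 19 above 0, beside 55.4% of all genes past the filter. Of the 26, 4 were at least 2-fold higher and none lower, beside 11.9% and 0.444% of all genes past the filter. The median was 0.27 (0.01 after trend subtraction), and the median GC content of 45.3% was lower than the 51.8% of the receptors past the filter. SOCS4 (FPKM 2.67 and 11.96) and SOCS5 (2.24 and 8.07), which restrain EGFR signalling, had log2 ratios of 1.82 and 1.48. CD2AP, an adaptor in receptor endocytosis, had 1.57 and 6.79 (1.60), and the phosphatase PTPN12 had 5.04 and 11.3 (1.03). After trend subtraction these were 0.58, 0.45, 0.51 and 0.34. MVB12A (49.5 and 32.4), a subunit of the sorting complex for receptors, and the lipid phosphatase INPPL1 (35.7 and 26.3) were the most abundant and lower in the LINC01133 library.

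Genes of ERK output and feedback, whose transcripts follow the activity of the cascade, had 7 of 15 past the filter. The rest of the list lay under it and enters no count or median here. None of the 7 was at least 2-fold higher or lower, beside 11.9% and 0.444% of all genes past the filter. The count of lower genes became 1 under each of the 3 other scalings, beside 0.929% to 4.24% of all genes. It was also 1 with a pseudocount of 0.1, beside 1.06%. The median of the 7 was -0.31, and -0.30 after trend subtraction. Of the 7, 3 were above 0, beside 55.4% of all genes past the filter. MYC had an FPKM of 190 and 153 and CCND1 had 41.3 and 47.2. Their log2 ratios of -0.31 and 0.19 became -0.005 and 0.25 after trend subtraction. The lowest as deposited were IER3 (19.9 and 10.6) and EGR1 (2.22 and 1.04). Their log2 ratios of -0.85 and -0.66 became -0.35 and -0.34. The proteases and chaperones of receptors had 13 of 15 past the filter, with a median of -0.25 (-0.01 after trend subtraction). Of the 13, 1 was at least 2-fold higher and none lower, beside 11.9% and 0.444% of all genes past the filter. The 1 was HSP90AA1, a chaperone on which ERBB2 and other kinases depend, with 190 and 442, while its paralogue HSP90AB1 had 1166 and 1195. The log2 ratio of HSP90AA1, 1.22, was 0.94 after trend subtraction.

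Sites of a miRNA that earlier work has linked to LINC01133 were looked for in the receptors' 3′ UTRs. Mature hsa-miR-145-5p, from RefSeq on GRCh38.p14, is shown with its seed (bases 2 to 8) in capitals, and beneath it each 3′ UTR stretch with the complementary AACTGGA in capitals, from GENCODE 29 transcripts.
hsa-miR-145-5p: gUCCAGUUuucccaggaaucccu
ERBB3 site: gtcagaaggaaaaatAACTGGAc
FGFR2 site: gtcaacgcaacgtctAACTGGAc
IGF1R first site: attattatttgggggAACTGGAc
IGF1R next site: cctaccggtttccacAACTGGAt
Of the 10 receptors, ERBB3 and FGFR2 held 1 site each and IGF1R held 2, and the other 7 held none, while 14.7% of 10302 genes past the filter with a 3′ UTR held a site. EGFR and FGFR1, which held none, lie under that filter. The 3′ UTRs searched ran from 317 bases in ERBB2 and 468 in FGFR4 to 7088 in IGF1R, and the counts were not adjusted for length. As deposited, the receptors with a site had ratios of 1.18 (0.95 to 1.46), 1.104 (0.994 to 1.23) and 0.999 (0.909 to 1.099), none of which differed from 1 beyond counting error. The 4 receptors that did differ from 1 in the filtered set (MET, PDGFRA, FGFR4 and ERBB2) held no such letters, and a match says nothing on binding in these cells.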

How the data were processed

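RNA of 2 HGC27 libraries was analysed, 1 per group, after selection of messenger RNA by poly-T beads, per the labels' protocols. The authors' files give 1 value per gene for each library. The labels do not name its unit, and the deposited values were read here as FPKM, scaled by the authors to exon length and counted fragments. Bowtie2 2.2.3, HISAT2 2.1.0, HTSeq 0.6.0 and GRCh38 appear in the submitters' processing notes, and their roles, the annotation release and the strand setting are not given in the sources used here. Multiplied by GENCODE 29 exon lengths, the deposited values were whole fragments (tolerance 0.02) for 94.5% and 94.4% of 28109 genes with a length. For EGFR, ERBB3, FGFR1, FGFR2 and IGF1R the lengths differed, and fragments are the single pair of whole numbers that fits the ratio of the libraries within 15% of that length. Intervals are 95% and exact, Poisson for levels and conditional Clopper-Pearson for ratios.

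Log2 ratios, overexpression over control, used a pseudocount of 1, a mean FPKM of at least 1 and a threshold of 1. This understates the ratios of low genes. Count tests were not used, since the unit is not counts. Lowess trends (span 0.3) on GC content, then length, of the longest coding transcript were subtracted, keeping the median; 99.7% of the genes past the filter had a value. Python 3.11.15, NumPy 2.4.6, pandas 2.3.3, SciPy 1.17.1 and statsmodels 0.14.6 were used, and the procedure was tested on simulated data.

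The receptors and the other 9 lists were chosen with earlier results of these data known. From each list, up to 4 genes past the threshold, the 2 most abundant and any ligand past the filter were named, beside all receptors and LINC01133. A gene that meets this rule is not reported here. With 2 libraries no gene was named for likeness to a receptor. Ligands under the filter, KLB, EGR1, IER3, EPHA8, single cell markers and genes that share exons were named after their values were seen. Alternatives were 3 scalings, other pseudocounts and filters, a lower threshold and the trends.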

Additional observations from a re-analysis of the deposited data

How the results depend on the processing

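No paired analysis was possible because the design offers a single library on either side. The median log2 ratio of the receptors was 0.06, beside 0.10 for all genes past the filter. The receptors' median moved to -0.11 under median of ratios scaling (all genes -0.07) and -0.12 under trimmed mean of M values scaling (all genes -0.07). Under upper quartile scaling it was -0.29 (all genes -0.23), and with a mean FPKM of at least 5 it was -0.19 (all genes -0.10). With trends fitted on genes whose mean FPKM reached 5 it moved to -0.10 (all genes -0.10). That alternative was chosen after seeing the data, as was a pseudocount of 0.1 with trends subtracted (0.09, all genes 0.10). The count of 0 receptors at least 2-fold higher became 1 with a pseudocount of 0.1 (PDGFRA, 1.01; 18.8% of all genes) and 2 at 1.5-fold (26.8%). The count of 0 at least 2-fold lower became 1 by upper quartile scaling (FGFR4, -1.08; 4.24% of all genes) and 1 at 1.5-fold (5.29%). The cause was not tested. ERBB2 (up to 0.06) and IGF1R turned above 0 in 3 of 4 trend settings and AXL in all 4; with trends fitted on genes whose mean FPKM reached 5, ERBB2 was at -0.12 and IGF1R at -0.13. Depth limits FGFR1 and EGFR most, and the exon lengths assumed for 5 receptors limit levels between genes.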
